A study of Solanum lycopersicum with 84 samples.

Results

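The comparison of shoots with roots after nitrate supply asks which genes differ between the 2 organs of the same kind of tomato seedling. It took the 6 mRNA libraries of +N plants, 3 of shoots and 3 of roots, of the 12 mRNA libraries of the study, and every gene with enough counts in those 6, which gave 21663 of 34075 annotated genes. The plants were *Solanum lycopersicum* cultivar M82 grown in hydroponics, 22 days old when they were moved to N-free medium, and they were kept there for 4 days. All of them then received fresh medium, with nitrate for the +N groups (shoot+N and root+N) and without N for the −N groups (shoot−N and root−N), and each organ was harvested 6 h later. Each library was made from the pooled organs of 4 plants, so a replicate is a pool and not a plant, and whole shoots and whole roots mix all of their cell types. The design implies the organ contrast under +N, and its difference from the organ contrast under −N.

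Roots take up nitrate through membrane transporters, and nitrate is reduced to nitrite by nitrate reductase (*NIA*) and to ammonium by nitrite reductase (*NIR*), either in the root or, after transport in the xylem, in the leaf. Glutamine synthetase (*GS*) and glutamate synthase (*GLT*) then fix ammonium into amino acids with carbon that the leaves assimilate. Shoots therefore carry the photosynthetic machinery, and roots the uptake systems, the barrier layers around the vascular tissue and the hairs that explore the medium.

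A gene was called higher in an organ where the edgeR quasi-likelihood test gave an adjusted p under 0.015 and the change exceeded 2-fold. By that rule 4967 genes (22.9% of the genes tested) were higher in shoots and 4786 (22.1%) were higher in roots, so that 45% of all genes tested differed between the organs. At the adjusted p alone, 17110 genes differed, of which 7357 lay within 2-fold, and 4553 did not reach it. In bulk tissue, fewer cells of a type and less RNA per cell cannot be told apart. Each fold given here is therefore one of the gene's level relative to the organ's other mRNA, after scaling between libraries. The groups of 3 did not overlap for 84.5% of the genes tested, called or not, and did not overlap for 9740 of the 9753 genes called.

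The organ labels were checked on genes that define each organ. All 24 shoot markers, genes of photosynthesis, were higher in shoots, where they summed to 16129 to 17212 CPM (counts relative to the library total, scaled by the trimmed mean of M-values), against 93.4 to 99.7 CPM in roots. Of 17 root markers 15 were tested and 13 were higher in roots, with a sum of 290.6 to 306.4 CPM in shoots, against 2678 to 2828 CPM in roots, and 7 of the 17 had no count in any shoot library. The 6 libraries held 18214103 to 21228781 counts in shoots and 17472760 to 19234119 counts in roots. Log-scale profiles correlated at 0.991 or more within an organ and at 0.573 to 0.582 between organs.

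**Figure D1:**
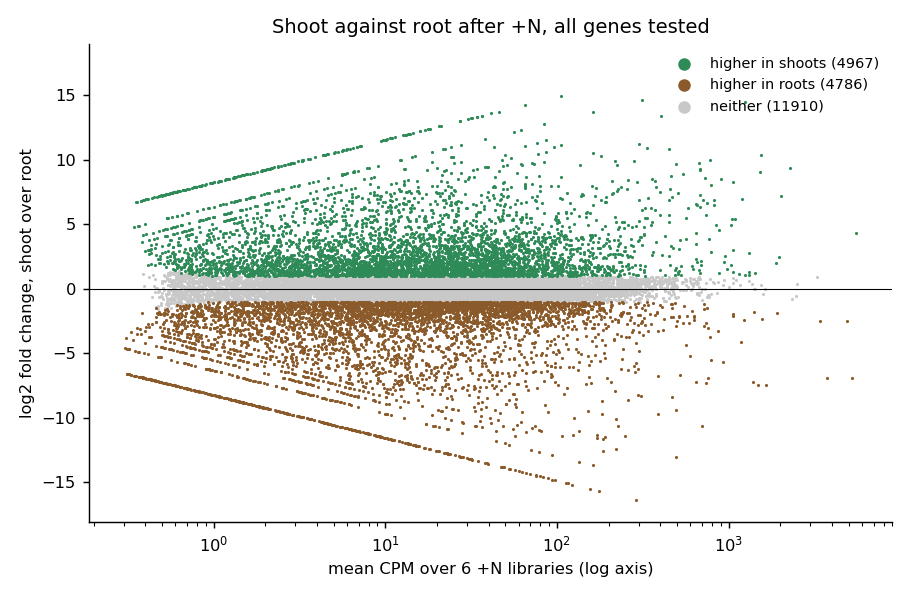
Each point is 1 of 21663 genes, placed by its mean level over the 6 +N libraries (CPM, log axis) and its log2 fold change of shoot over root; green points were called higher in shoots (4967), brown points higher in roots (4786) and grey points neither. The differences run to both sides at every level, and the straight outer lines are genes with no count in 1 organ, whose fitted fold depends on the prior count.

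The differences were often large. The median fold of the calls was 4.85 for genes higher in shoots and 5.22 for genes higher in roots. Over 16-fold, 1227 genes were higher in shoots and 1500 were higher in roots. Over 256-fold, 267 were higher in shoots and 476 in roots. Of the genes called, 204 had no count at all in the 3 root libraries and 414 had none in the 3 shoot libraries. The genes higher in shoots took 38.8% ± 0.235 of all counts in shoots and 7.13% ± 0.0457 in roots (SD, n = 3 each). Those higher in roots took 5.66% ± 0.0416 in shoots and 33.4% ± 0.0869 in roots (SD, n = 3 each). Both sets were called in these same libraries, so the direction of these shares was fixed by the choice and they are a description. Per chromosome, between 21.1% and 25.1% of the genes tested were higher in shoots and between 19.6% and 24.4% were higher in roots, over chromosomes 1 to 12. The gene lists that follow hold only genes that the study's own supplementary tables describe, which are genes that responded to nitrate or were differentially marked. Of the 3494 described genes tested 28.7% were higher in shoots and 34.2% were higher in roots, 62.9% in all, against 45% of all genes, and these shares are the background of each list's count.

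Photosynthesis genes had some of the largest differences toward shoots. All 7 nuclear genes of the light-harvesting antenna, the proteins that hold the chlorophyll around the photosystems, were higher in shoots, with a median log2 fold change of 9.75 beside 0.0038 over all genes. *PsbS*, *Solyc06g060340.3* (homolog of *A. thaliana* NPQ4), the protein of photosystem II through which excess light is released as heat, had 208, 226 and 204 CPM in shoots, against no count in roots, at least 4079.6-fold higher. *Solyc02g070980.1*, a chlorophyll a-b binding protein gene (CAB1 homolog), had 745, 715 and 560.3 CPM in shoots, against 0.249, 0.419 and 0.384 CPM in roots (log2 fold change 10.89, SE 0.15, adjusted p = 6.53e-27). The other members of that family were called in the same direction, but the copies are similar and reads could be split between them. A neighbouring pair, *Solyc03g005770.3* and *Solyc03g005780.3*, had log2 fold changes of 9.77 and 8.33. All 10 nuclear genes for photosystem and electron transport proteins were higher in shoots, too (median 6.11). Among them, *PSBO* (*Solyc02g090030.2*), the protein that stabilises the manganese cluster where water is split, had 1125, 1173 and 1141 CPM in shoots, against 16, 14.5 and 13.6 CPM in roots (log2 fold change 6.28, SE 0.056, adjusted p = 1.85e-30). The smallest difference in that list was 2.64 on the log2 scale and the largest was 10.57.

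The Calvin cycle, which fixes carbon dioxide in the chloroplast, was on the side of shoots as well. All 7 members were higher in shoots (median 9.04). Rubisco activase, *RCA* (*Solyc10g086580.2*), which keeps the carboxylating enzyme active, had 3127, 3224 and 2975 CPM in shoots, against 2.34, 2.67 and 1.75 CPM in roots (log2 fold change 10.42, SE 0.074, adjusted p = 8.46e-32). A gene of the Rubisco small subunit, *Solyc02g063150.3*, had 3023, 3243 and 2922 CPM in shoots, against 5.83, 6.39 and 5.15 CPM in roots (log2 fold change 9.04, SE 0.067, adjusted p = 1.45e-31). The chloroplast aldolase gene *Solyc01g110360.3* (FBA2 homolog) had 886, 896 and 921 CPM in shoots, against 0.399, 0.524 and 0.548 CPM in roots (log2 fold change 10.83, SE 0.082, adjusted p = 1.72e-31). Those 3 genes each had a few CPM or less in every root library, below all shoot values. A transketolase gene, *Solyc10g018300.3*, whose product moves carbon units within the cycle, had 1842, 1786 and 1765 CPM in shoots, against 4.64, 4.5 and 5.21 CPM in roots (log2 fold change 8.55, SE 0.060, adjusted p = 8.46e-32).

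Genes that act beside carbon fixation were less uniform. In photorespiration and carbonic anhydrase, 5 of 9 tested members were higher in shoots, 1 was higher in roots and 3 were neither (median 1.32). Glycolate oxidase, *Solyc07g056540.3*, the peroxisomal enzyme that oxidises the product of Rubisco's oxygenation, had 1995, 2033 and 2003 CPM in shoots, against 57.9, 65.8 and 66.4 CPM in roots (log2 fold change 4.99, SE 0.050, adjusted p = 1.95e-29). A catalase gene, *Solyc12g094620.3* (CAT2 homolog), which destroys the hydrogen peroxide formed there, had 1778, 1954 and 1916 CPM in shoots, against 818, 764 and 679 CPM in roots (log2 fold change 1.32, SE 0.051, adjusted p = 1.13e-17), and so was well expressed in both organs. Of 5 tested genes for chlorophyll and tetrapyrrole synthesis 4 were higher in shoots (median 4.83), among them the magnesium chelatase subunit gene *Solyc10g008740.3* (CHLI1 homolog) at 4.81 on the log2 scale. The remaining one was the gene that starts siroheme synthesis, *Solyc01g086650.3* (UPM1 homolog), whose product supplies the cofactor of nitrite reductase. It had 224, 184 and 204 CPM in shoots, against 365, 381 and 445 CPM in roots, a difference of −0.96 on the log2 scale that passed the adjusted p and stayed within 2-fold, but without shoot replicate 1 (−1.03) or root replicate 1 (−1.02), or under total-count (−1.09) or upper-quartile scaling (−1.0), it was called higher in roots.

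Copies of chloroplast-genome genes sit on unplaced sequence of the assembly. Of 45 such photosynthesis genes 2 were tested and both were higher in shoots, and the rest had too few counts. Of the 45, 40 had no count in shoots and 43 had none in roots. The 2 tested genes passed the filter through the shoot libraries, so their direction was set by it. The large-subunit gene of Rubisco, *Solyc00g500063.1*, had 16.2, 10.8 and 29.3 CPM in shoots, against 1.7, 0.471 and 0.329 CPM in roots. The labels give the RNA of these libraries as polyadenylated, and the part of that in the low plastid counts was not tested.

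Outside photosynthesis, the genes with the largest folds toward shoots had mixed roles. A germin-like protein gene, *Solyc07g041720.1* (GLP3 homolog), had 2482, 2553 and 2492 CPM in shoots, against 0.0499, 0.157 and 0.11 CPM in roots (log2 fold change 14.46, SE 0.091, adjusted p = 2.63e-32). The root libraries held 6 counts of it in all, so this SE can understate the counting error. Inositol oxygenase, *Solyc10g005400.3*, which opens the inositol ring on the way to cell-wall sugars, had 126, 129 and 135 CPM in shoots, against no count in roots, at least 2481-fold higher. A cytochrome P450 gene, *Solyc04g071800.3*, whose *A. thaliana* homolog TT7 hydroxylates flavonoids, had 63.3, 80.4 and 74.7 CPM in shoots, against no count in roots, at least 1398-fold higher. All 3 had values in every shoot library that were far above any in roots. *Solyc06g073920.3*, a homolog of YAB2, a transcription factor of leaf blades in *A. thaliana*, had 19.5, 19.9 and 21.9 CPM in shoots, against no count in roots, at least 390.5-fold higher. Among genes with no description, *Solyc01g079470.4* had 1054, 1139.5 and 1024 CPM in shoots, against no count in roots, at least 20586-fold higher, and *Solyc02g085933.1* had 524, 718 and 649 CPM in shoots, against 0.0499, 0 and 0 CPM in roots, a ratio of 36346 (exact binomial 95% interval 6523 to 1435610.0, counting error only).

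Wax and long-chain fatty acid genes, which make the surface lipids of the leaf, leaned to shoots. Of 9 tested members 5 were higher in shoots and 1 was higher in roots (median 2.39), or 2 in roots without root replicate 3 or shoot replicate 2 or under total-count scaling. *Solyc07g006300.4*, the homolog of ECERIFERUM 3 of wax alkane synthesis, had 111, 97.4 and 106 CPM in shoots, against 1.5, 1.41 and 0.822 CPM in roots (log2 fold change 6.38, SE 0.11, adjusted p = 1.09e-24). The 3-ketoacyl-CoA synthase gene *Solyc11g072990.1* (KCS3 homolog), which elongates fatty acids, had 47.2, 42.8 and 47.8 CPM in shoots, against 3.24, 2.57 and 2.19 CPM in roots (log2 fold change 4.09, SE 0.11, adjusted p = 1.13e-20). A fatty acyl-CoA reductase gene, *Solyc06g074390.3* (CER4 homolog), had 15.7, 19.6 and 18 CPM in shoots, against 13.9, 12 and 10.9 CPM in roots and stayed within 2-fold at 0.53 on the log2 scale.

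High-affinity nitrate uptake genes were higher in roots. All 4 tested genes of the high-affinity NRT2 and NRT3 families were higher in roots (median −7.66). *Solyc11g069735.1*, described as a type 2.2 transporter, had no count in shoots, against 339, 361 and 360.2 CPM in roots, at least 6574-fold lower, and it had the largest fold toward roots of all described genes at 10 CPM or more. A second *NRT2* gene, *Solyc06g074990.3*, had 2.59, 1.63 and 1.78 CPM in shoots, against 561, 585 and 621 CPM in roots (log2 fold change −8.21, SE 0.084, adjusted p = 2.94e-29). Their partner *NRT3*, *Solyc03g112100.3*, a small protein that NRT2 transporters need at the plasma membrane, had 9.76, 9.47 and 10.8 CPM in shoots, against 994, 1022 and 1069 CPM in roots (log2 fold change −6.68, SE 0.059, adjusted p = 1.69e-30). For each of them the lowest root library was far above the highest shoot library. *Solyc11g069760.1* (transporter 2.1) had 1 count in the 3 shoot libraries and 4.14, 3.35 and 2.69 CPM in roots, a ratio of 191 (exact binomial 95% interval 33.8 to 7572, counting error only). Under −N, 4 genes of these families were tested, with 3 higher in roots and 1 higher in shoots.

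The NPF family, which holds the low- and dual-affinity nitrate transporters and the peptide transporters, was divided. Of 26 tested members 13 were higher in shoots and 7 were higher in roots (median 0.86), and 6 were neither. *NIT1* (*Solyc08g078950.3*, homolog of NRT1.1 of *A. thaliana*) had 117, 120.2 and 124 CPM in shoots, against 505, 492 and 477 CPM in roots (log2 fold change −2.03, SE 0.043, adjusted p = 4.36e-23). The gene described as *NPF6.3*, *Solyc06g060620.4*, with the same *A. thaliana* homolog, a transporter that also senses nitrate there, had 57.6, 74.1 and 68.6 CPM in shoots, against 12, 12 and 11.7 CPM in roots (log2 fold change 2.49, SE 0.088, adjusted p = 1.65e-18). These 2 homologs thus differed between the organs in opposite directions. The remaining *NIT* gene, *NIT2* (*Solyc08g007430.2*), had 1.6, 1.33 and 1.6 CPM in shoots, against 12.3, 7.7 and 7.56 CPM in roots (log2 fold change −2.61, SE 0.22, adjusted p = 6.93e-11). All 3 tested ammonium transporter genes were higher in roots (median −2.56), with 23.3, 20.9 and 20.6 CPM in shoots, against 268, 279 and 277 CPM in roots for *Solyc04g050440.3* (AMT1;2 homolog, log2 fold change −3.67, SE 0.055, adjusted p = 3.99e-26).

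**Figure D2:**
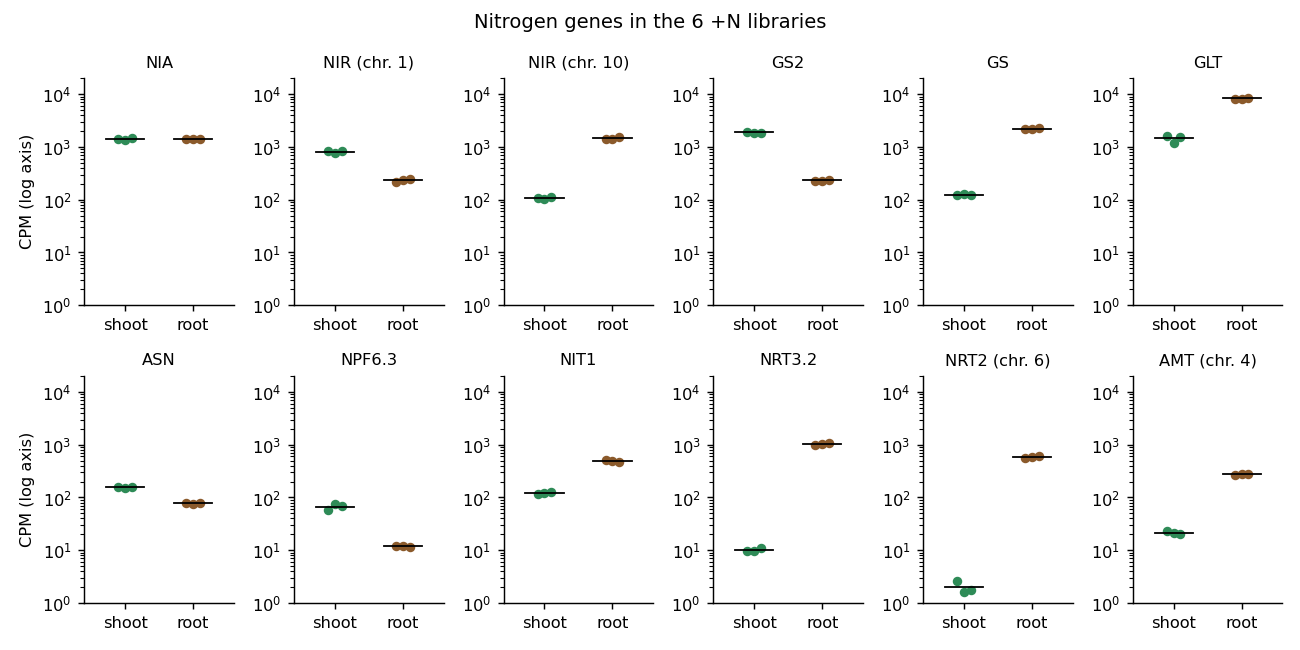
CPM (log axis) of 12 nitrogen genes in the 3 shoot+N libraries (green, left in each panel) and the 3 root+N libraries (brown, right), with points for libraries and bars for means; *NIA* stands at one level in both organs, the pairs of *NIR* and *GS* genes are divided between the organs, and *NRT3.2*, the *NRT2* gene and the ammonium transporter gene are higher in every root library.

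Nitrate assimilation did not follow uptake in a single direction. Nitrate reductase, *NIA* (*Solyc11g013810.3*), the first enzyme, had 1410.1, 1360.2 and 1475 CPM in shoots, against 1407, 1420.2 and 1427 CPM in roots, a log2 fold change of −0.0029 (SE 0.037, adjusted p = 0.943), and its groups overlapped. The 2 *NIR* genes split between the organs. *Solyc01g108630.3* had 823, 783 and 844 CPM in shoots, against 220.5, 235 and 246 CPM in roots (log2 fold change 1.8, SE 0.044, adjusted p = 9.40e-22). *Solyc10g050890.2* had 108, 105 and 114 CPM in shoots, against 1402, 1430.0 and 1534 CPM in roots (log2 fold change −3.74, SE 0.047, adjusted p = 1.40e-27). The groups did not overlap for either gene, but the 2 belong to one family and how reads that match both were counted is not given in the sources used here.

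The glutamine synthetase genes were split, too. The chloroplast form, *GS2* (*Solyc01g080280.3*), which takes up ammonium from nitrite reduction and photorespiration in leaves, had 1922, 1874 and 1874 CPM in shoots, against 232, 227 and 242 CPM in roots (log2 fold change 3.02, SE 0.040, adjusted p = 3.85e-27). A *GS* gene whose *A. thaliana* homolog is the cytosolic form GSR2, *Solyc04g014510.3*, had 123, 129 and 121 CPM in shoots, against 2188, 2163 and 2327 CPM in roots (log2 fold change −4.16, SE 0.045, adjusted p = 6.84e-29). Glutamate synthase, *GLT* (*Solyc03g083440.4*), the enzyme that follows them, had 1603, 1207 and 1581 CPM in shoots, against 8320.4, 8275 and 8547 CPM in roots (log2 fold change −2.52, SE 0.067, adjusted p = 4.81e-21). Asparagine synthetase, *Solyc04g055200.3*, which stores N as asparagine, had 159, 151 and 155 CPM in shoots, against 79.2, 76.1 and 80.1 CPM in roots and stayed just within 2-fold (log2 fold change 0.98, SE 0.047, adjusted p = 8.50e-16), or reached a log2 fold change of 1.00 without shoot replicate 2. In all, 2 of 10 tested N assimilation genes were higher in shoots and 6 were higher in roots, a median of −2.59.

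Channels and carriers for other minerals had single members with large differences. Of 36 tested genes for metal, potassium, phosphate and sulfate transport 12 (33.3%) were higher in shoots and 16 (44.4%) were higher in roots, against 28.7% and 34.2% of described genes, and their median of 0.11 had the other sign (−0.02) under total-count scaling. The potassium channel *SKOR* (*Solyc11g011500.2*), whose *A. thaliana* homolog releases potassium into the xylem, had 0.386, 0.444 and 0.401 CPM in shoots, against 315, 301 and 288 CPM in roots (log2 fold change −9.49, SE 0.10, adjusted p = 2.83e-29). A gene described as potassium channel AKT1, *Solyc01g010080.3*, had 0.883, 0.937 and 0.802 CPM in shoots, against 352, 356 and 391 CPM in roots (log2 fold change −8.69, SE 0.090, adjusted p = 3.50e-29). A *PHO1*-like phosphate exporter gene, *Solyc09g090360.3*, had 37, 35.7 and 34.1 CPM in shoots, against 275, 289 and 293 CPM in roots (log2 fold change −3.0, SE 0.050, adjusted p = 4.01e-25). Each of the 3 was higher in every root library than in any shoot library. *Solyc06g051550.4*, annotated as fe inefficient, the transcription factor that tomato roots need to take up iron, had no count in shoots, against 61.4, 61.7 and 66 CPM in roots, at least 1173-fold lower.

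Of 8 tested aquaporins, the water channels, 2 were higher in shoots and 4 were higher in roots (median −0.76). The 2 higher in shoots were vacuolar-membrane channels: *TIP1.1* (*Solyc06g074820.3*) had 2369, 2215 and 2275 CPM in shoots, against 380.1, 313 and 303 CPM in roots (log2 fold change 2.78, SE 0.059, adjusted p = 4.91e-23), and *TIP4.1* (*Solyc08g066840.3*) had 101, 107 and 114 CPM in shoots, against 30.9, 34.8 and 36.3 CPM in roots (log2 fold change 1.66, SE 0.064, adjusted p = 9.63e-18). The gene *NIP5.1* (*Solyc08g013730.3*), whose *A. thaliana* homolog is a boric acid channel, was lower in shoots, with 150.3, 139 and 157 CPM in shoots, against 407, 381 and 374 CPM in roots (log2 fold change −1.38, SE 0.047, adjusted p = 8.70e-19). The others higher in roots were described as channels of the NOD26-like, plasma-membrane and vacuolar-membrane types.

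Of 14 tested SWEET and sucrose genes 6 were higher in shoots, 3 were higher in roots and 5 were neither, and the median of 0.07 had the other sign (−0.06) under total-count scaling. Sucrose-phosphate synthase, *Solyc07g007790.3*, which makes sucrose, had 117, 121 and 121 CPM in shoots, against 23.6, 23.9 and 21.7 CPM in roots (log2 fold change 2.38, SE 0.058, adjusted p = 7.46e-22). Sucrose synthase, which despite its name mostly splits sucrose, had 2 genes in the list. *Solyc07g042550.3* had 57.8, 60.2 and 65.1 CPM in shoots, against 7540.3, 7084 and 7708 CPM in roots (log2 fold change −6.93, SE 0.053, adjusted p = 1.84e-31). *Solyc12g009300.3* had 19.6, 17.7 and 17.2 CPM in shoots, against 3397, 3237 and 3182 CPM in roots (log2 fold change −7.49, SE 0.055, adjusted p = 1.45e-31).

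All 3 tested genes described as pyruvate decarboxylase, the first step from pyruvate to ethanol, were higher in roots. Of these, *Solyc10g076510.2* had 16.7, 16.9 and 16 CPM in shoots, against 2976, 3026 and 2887 CPM in roots (log2 fold change −7.48, SE 0.051, adjusted p = 8.46e-32), and *Solyc02g077240.4* had 19.3, 17.7 and 17.6 CPM in shoots, against 2905, 2678 and 2692 CPM in roots (log2 fold change −7.24, SE 0.056, adjusted p = 2.05e-31). Of 3 tested genes described as enolase, an enzyme of glycolysis, 1 was higher in shoots and 2 were higher in roots. *Solyc10g085550.3* had 171, 178 and 166 CPM in shoots, against 74, 74.8 and 77.5 CPM in roots (log2 fold change 1.19, SE 0.047, adjusted p = 2.09e-17), and *Solyc09g009020.3* had 508, 535 and 529 CPM in shoots, against 2506, 2599 and 2695 CPM in roots (log2 fold change −2.31, SE 0.039, adjusted p = 5.20e-25). A gene of a hypoxia-responsive family, *Solyc06g050870.3*, had no count in shoots, against 186, 212 and 167 CPM in roots, at least 3512-fold lower. *Solyc02g085910.4*, a LOB-domain factor gene and homolog of LBD41, which low oxygen raises in *A. thaliana*, had 1.77, 2.17 and 2.29 CPM in shoots, against 200.3, 164 and 153 CPM in roots (log2 fold change −6.37, SE 0.12, adjusted p = 3.06e-24). These genes were named for their high CPM, large fold or place in a list, except *Solyc10g085550.3*, which was chosen after its values were seen, and were not a list of their own.

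Genes for cell walls and barriers were mostly higher in roots. Of 31 tested class III peroxidases, secreted enzymes that cross-link wall polymers, 26 were higher in roots and 3 were higher in shoots (median −7.59, or −7.21 with genes lacking counts set at their bound). One of them, *Solyc01g015080.3*, had no count in shoots, against 159.6, 202 and 226 CPM in roots, at least 3627-fold lower. Of the 35 peroxidases listed, 16 had no count in shoots and 2 had none in roots. A gene without shoot counts could pass the filter only through roots, so its direction was set by the filter. Of 15 tested genes for Casparian strip and dirigent proteins, families of which some members build the lignin barrier of the endodermis, 11 were higher in roots (median −7.05, bound −6.51). Of the 20 listed, 9 had no count in shoots and 4 had none in roots, with the same limit. The dirigent gene *Solyc05g054780.3* had 0.331, 0.197 and 0.401 CPM in shoots, against 109, 110.3 and 128 CPM in roots (log2 fold change −8.54, SE 0.14, adjusted p = 2.44e-25), and the CASP-like gene *Solyc01g067300.3* had 1.38, 0.986 and 1.03 CPM in shoots, against 103, 103 and 105 CPM in roots (log2 fold change −6.51, SE 0.10, adjusted p = 7.05e-26).

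Extensins, the structural glycoproteins of walls, and expansins, which loosen them, were higher in roots in 26 of 31 tested genes (median −6.87, bound −5.5). Of the 33 listed, 12 had no count in shoots and 2 had none in roots, and genes without shoot counts could be tested only through roots. Leaving out root replicate 2 or 3 or shoot replicate 1 or 2 gave 2 members higher in shoots in place of 1. That one, extensin-like, *Solyc09g075590.1*, had 39.1, 37.9 and 32.1 CPM in shoots, against no count in roots, at least 698-fold higher. *Solyc09g098510.3*, described as extensin-3, had 1060.4, 959 and 1061 CPM in shoots, against 5989.8, 5813 and 5499 CPM in roots (log2 fold change −2.49, SE 0.044, adjusted p = 8.99e-25), but extensin genes lie in clusters of similar copies and the split of reads among them is uncertain. Of 10 tested homologs of root hair genes 8 were higher in roots (median −6.66, bound −5.15). Of these 10, 4 had no count in shoots and 0 had none in roots. The expansin gene *Solyc08g080060.4* (EXPA7 homolog), specific to hair cells in *A. thaliana*, had 2 counts in the 3 shoot libraries and 13.5, 13 and 13.4 CPM in roots, a ratio of 372 (exact binomial 95% interval 103 to 3075, counting error only). Of 19 tested lipid-transfer proteins, small secreted carriers of lipids, 15 were higher in roots and 2 were higher in shoots (median −3.69). Laccases and lignin genes were less one-sided, with 7 of 26 higher in shoots and 11 higher in roots (median −0.72).

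**Figure D3:**
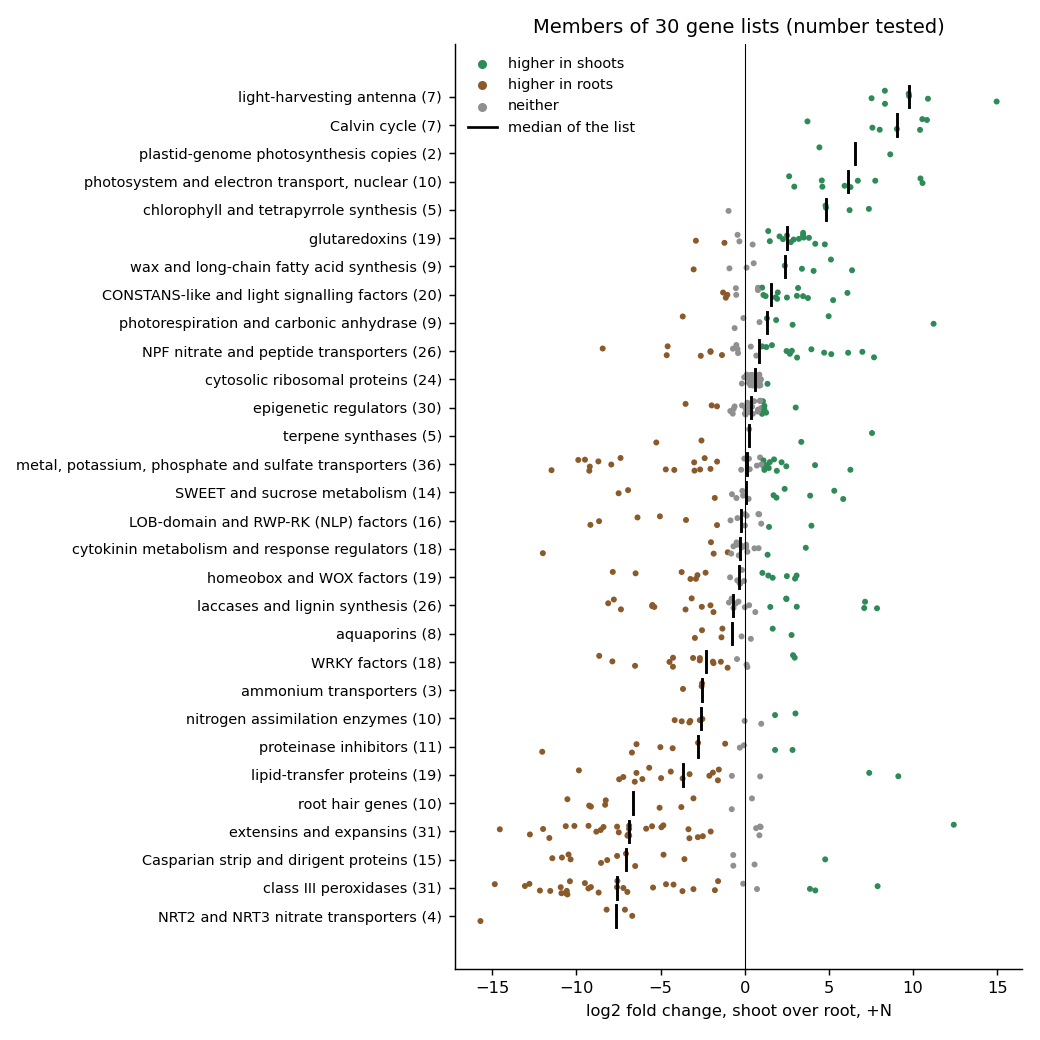
Each point is 1 tested member of a list, placed by its log2 fold change of shoot over root under +N (green higher in shoots, brown higher in roots, grey neither), with the list's median as a black bar and the number tested in brackets. Photosynthesis lists lie at the top right with medians up to 9.75. Wall, barrier and high-affinity nitrate uptake (NRT2 and NRT3) lists lie at the bottom left with medians down to −7.66, and ribosomal proteins close to 0.

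Transcription factors were taken in several lists. Of 20 tested CONSTANS-like and light-signalling genes 13 were higher in shoots and 3 were higher in roots (median 1.54). *CONSTANS-LIKE 4* (*Solyc12g096500.2*) had 144, 162 and 153 CPM in shoots, against 37.2, 40.4 and 40.0 CPM in roots (log2 fold change 1.97, SE 0.056, adjusted p = 1.97e-20), whereas phytochrome A (*Solyc10g044670.3*), a red-light receptor, had 82.4, 88.1 and 84.3 CPM in shoots, against 188, 188 and 179.6 CPM in roots (log2 fold change −1.12, SE 0.046, adjusted p = 4.19e-17). Of 18 tested WRKY factors, many of which act in defence, 13 were higher in roots and 2 were higher in shoots (median −2.28). *Solyc01g095100.4* (WRKY22) had 9.49, 9.27 and 7.73 CPM in shoots, against 57, 58 and 53.2 CPM in roots (log2 fold change −2.66, SE 0.084, adjusted p = 1.85e-19). Of 19 tested homeobox factors 6 (31.6%) were higher in shoots and 7 (36.8%) were higher in roots (median −0.32), against 28.7% and 34.2% of described genes. Of 18 tested genes of cytokinin metabolism and response 2 were higher in shoots, 4 were higher in roots and 12 were neither (median −0.29).

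Among 16 tested LOB-domain and NIN-like (NLP) factors, which include regulators of N responses in *A. thaliana*, 2 were higher in shoots and 6 were higher in roots (median −0.21), and 1 was higher in shoots without root replicate 3 or shoot replicate 2. *Solyc01g107190.3*, a homolog of LBD37, which represses N-responsive genes in *A. thaliana*, had 56.4, 67.3 and 63.5 CPM in shoots, against 110.3, 109.7 and 116 CPM in roots, within 2-fold at −0.84 on the log2 scale (SE 0.058). *Solyc08g082750.3*, a homolog of the nitrate sensor and regulator NLP7, had 65.9, 70.8 and 70.8 CPM in shoots, against 63.6, 72.1 and 69.3 CPM in roots, a log2 fold change of 0.019 (SE 0.057, adjusted p = 0.768). The study names another NLP gene, *Solyc01g112190.3*, as similar to NLP7. It had 12.5, 16.3 and 13.1 CPM in shoots, against 11.8, 16.6 and 13.2 CPM in roots, with 0.015 on the log2 scale (SE 0.13, adjusted p = 0.914). Both NLP genes had overlapping groups under +N.

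Defensins and proteinase inhibitors, small proteins of defence, had large differences. A defensin-like gene, *Solyc07g009030.3*, had no count in shoots, against 221, 246 and 226 CPM in roots, at least 4301-fold lower, and its neighbour *Solyc07g009020.2* had no count in shoots, against 94.2, 105 and 95.2 CPM in roots, at least 1827-fold lower. Of 11 tested proteinase inhibitors 7 were higher in roots and 2 were higher in shoots (median −2.77). The miraculin-like gene *Solyc06g072220.1* had 2.76, 1.92 and 2.52 CPM in shoots, against 49, 46.4 and 44.1 CPM in roots (log2 fold change −4.28, SE 0.11, adjusted p = 4.14e-21). Of 5 tested terpene synthases 2 were higher in each organ (median 0.27). Among genes with no description, the largest folds toward roots were those of *Solyc08g079930.2*, with no count in shoots, against 584, 573 and 571 CPM in roots, at least 10725-fold lower, and of *Solyc04g007050.4*, with no count in shoots, against 260.3, 328 and 349 CPM in roots, at least 5792-fold lower.

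Glutaredoxins, small redox proteins, leaned to shoots in 14 of 19 tested genes, with 2 higher in roots (median 2.52), or 1 without shoot replicate 3. Of the 19, 10 lie within a run of 11 consecutive genes on chromosome 4, and 9 of these 10 were higher in shoots. Their means ran from 2.58 to 30.6 CPM in shoots, against 0.209 to 3.46 CPM in roots. The run was picked after its values were seen. Members at the low end in roots passed the filter through shoots, so their direction was set by it. *Solyc04g011840.1* of that run had 31.7, 25 and 33.2 CPM in shoots, against 1.25, 1.1 and 0.932 CPM in roots (log2 fold change 4.76, SE 0.16, adjusted p = 7.17e-19). Under −N, these 10 genes had between 0 and 13 counts over all 6 libraries and were not tested, and their copies are similar, so they are not independent evidence of one another.

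Most ribosomal protein and epigenetic regulator genes were called higher in neither organ. Of 24 tested cytosolic ribosomal protein genes 1 was higher in shoots and 23 lay within 2-fold, but 20 of the 24 had a positive log2 fold change at the adjusted p (19 under total-count scaling), with a median of 0.61. *RPL9* (*Solyc06g073310.3*) had 689, 712 and 688 CPM in shoots, against 435, 429.8 and 444 CPM in roots, a log2 fold change of 0.67 (SE 0.037). Of 30 epigenetic regulators 6 were higher in shoots (4 under total-count scaling), 3 were higher in roots and 21 were neither (median 0.38). At the adjusted p alone, 16 of the 30 had a positive and 7 a negative log2 fold change. *HDT1*, a plant-specific histone deacetylase (*Solyc11g066840.3*), had 805, 773 and 809 CPM in shoots, against 452, 455 and 485 CPM in roots, a log2 fold change of 0.78 (SE 0.039) within 2-fold.

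As shares of all counts, the Calvin cycle genes took 0.910% ± 0.0299 in shoots and 0.00265% ± 0.000276 in roots (SD, n = 3 each). The N assimilation genes took 0.597% ± 0.0314 in shoots and 1.67% ± 0.0460 in roots (SD, n = 3 each), and the SWEET and sucrose genes, with the 2 sucrose synthases, took 0.0386% ± 0.000948 in shoots and 1.15% ± 0.0325 in roots (SD, n = 3 each). The terpene synthases took 0.00236% ± 0.000134 in shoots and 0.00231% ± 0.000193 in roots (SD, n = 3 each), a difference smaller than the spread between replicates.

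The −N libraries show how far the organ differences were the same without nitrate. Under −N, 4322 of 22092 genes tested (19.6%) were higher in shoots and 4009 (18.1%) were higher in roots, 37.7% in all. Of 4875 genes higher in shoots under +N and tested in both, 3600 (73.8%) were also higher in shoots under −N, and these were 87.1% of the 4135 genes tested in both that were higher in shoots under −N. Of 4674 genes higher in roots under +N, 3256 (69.7%) were also higher in roots under −N, 85.4% of the 3812 such genes tested in both. The log2 fold changes of the 2 contrasts, which share no library, correlated over 21404 genes (Pearson 0.943, Spearman 0.843), given as a description, since genes are not independent replicates and libraries of an organ share its base composition and protocol.

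**Figure D4:**
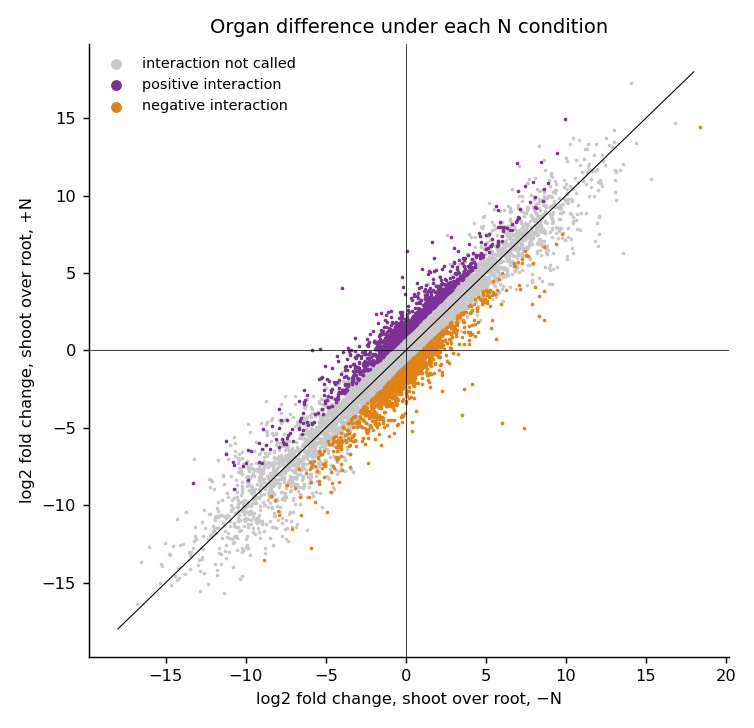
Log2 fold change of shoot over root under +N (vertical) and under −N (horizontal) for the genes tested in both, with the diagonal of equal values; purple points had a positive and orange points a negative interaction call, and grey points had none. Most points lie along the diagonal, and few lie in the quadrants of opposite sign far from 0.

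Whether the organ difference itself changed with N was tested as the interaction of organ and N, the log2 fold change of shoot over root under +N minus that under −N. It was positive for 1626 genes (7.23% of 22483 tested), negative for 1574 (7%) and called in 14.2% in all. The lists hold only described genes, which responded to nitrate in these same libraries or were differentially marked. Interaction calls are therefore partly built into the choice of their members. The share of described genes with an interaction call was not computed, so the list counts below are descriptions. The wax and long-chain fatty acid genes had 8 positive calls among 9 tested (7 with DESeq2), with a median of 2.39 under +N and 0.58 under −N. For instance, *Solyc06g074390.3* (CER4 homolog), within 2-fold under +N, had means of 9.37 ± 1.24 CPM in shoots and 37.8 ± 1.57 CPM in roots under −N (SD, n = 3 each), lower in shoots there (interaction 2.53, SE 0.16, adjusted p = 2.11e-11).

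Ribosomal protein genes had 15 positive calls among 24 (12 under total-count scaling and 17 with DESeq2). Under −N their median was −0.61, and 19 of the 24 had a negative fold change at the adjusted p and 1 a positive one, so the list lay on the side of shoots with nitrate and on the side of roots without it. Medians of other lists changed sign as well: homeobox factors (−0.32 under +N and 0.61 under −N) and cytokinin genes (−0.29 and 0.31). So did those of the epigenetic regulators (0.38 and −0.13), mineral transporters (0.11 and −0.16) and SWEET and sucrose genes (0.07 and −0.32). Under total-count scaling the +N medians of the last 2 lists were −0.02 and −0.06, so their change of sign depended on the scaling. For some lists the members tested differed slightly between +N and −N. *RPL9* (*Solyc06g073310.3*) had means of 196 ± 4.13 CPM in shoots and 304 ± 13.8 CPM in roots under −N (SD, n = 3 each; interaction 1.29, SE 0.063, adjusted p = 6.15e-13). The epigenetic regulators had 10 positive and 3 negative calls among 30 (8 and 3 under total-count scaling). The *HDT1* gene *Solyc11g066840.3* had means of 131 ± 9.48 CPM in shoots and 285 ± 12.8 CPM in roots under −N (SD, n = 3 each; interaction 1.88, SE 0.076, adjusted p = 5.95e-14).

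**Figure D5:**
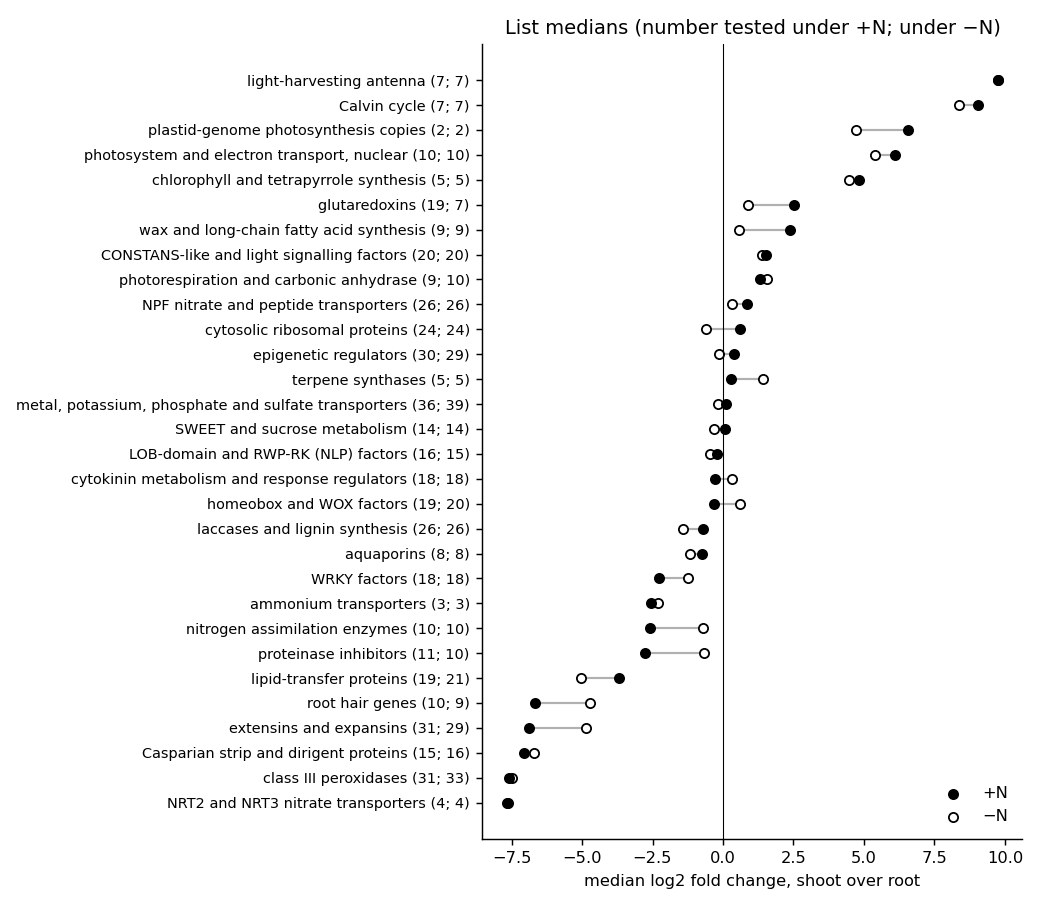
Median log2 fold change of shoot over root for each list under +N (filled) and under −N (open), with the numbers tested in brackets; the medians of photosynthesis and wall lists keep their side, while the ribosomal proteins lie at 0.61 under +N and at −0.61 under −N and the wax genes at 2.39 and 0.58.

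Of 10 N assimilation genes 5 had a negative and 2 a positive interaction call. The *NIR* gene *Solyc10g050890.2* had means of 16.1 ± 0.539 CPM in shoots and 28.2 ± 1.55 CPM in roots under −N (SD, n = 3 each), and its log2 fold change was −3.74 under +N, against −0.81 under −N (interaction −2.95, SE 0.085, adjusted p = 5.61e-16). The other, *Solyc01g108630.3*, had a log2 fold change of 1.8 under +N, against 3.6 under −N (interaction −1.82, SE 0.14, adjusted p = 9.17e-10). For the *GS* gene *Solyc04g014510.3* the values were −4.16 under +N and −2.37 under −N (interaction −1.81, SE 0.077, adjusted p = 1.08e-13). *NIA* was −0.33 under −N and its interaction of 0.30, SE 0.13, adjusted p = 0.0625 was not called, nor was that of *GS2* (−0.26, SE 0.070, adjusted p = 0.00389). Asparagine synthetase, *Solyc04g055200.3*, turned the other way, with −0.89 under −N (interaction 1.86, SE 0.075, adjusted p = 6.19e-14).

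Among 17 LOB-domain and NLP factors tested for the interaction 2 calls were positive and 1 was negative, near the 14.2% called over all genes. The LBD37 homolog *Solyc01g107190.3*, lower in shoots within 2-fold under +N, had means of 7.49 ± 1.1 CPM in shoots and 1.17 ± 0.757 CPM in roots under −N (SD, n = 3 each), so it was higher in shoots there (2.7 on the log2 scale; interaction −3.58, SE 0.24, adjusted p = 8.35e-11). The NLP gene *Solyc01g112190.3*, whose organs overlapped under +N, had means of 1.82 ± 0.324 CPM in shoots and 107 ± 0.637 CPM in roots under −N (SD, n = 3 each; interaction 5.87, SE 0.19, adjusted p = 1.58e-15). The potassium channel *SKOR* widened toward roots (interaction −3.46, SE 0.46, adjusted p = 1.91e-06), as did the sucrose synthase *Solyc12g009300.3* (interaction −2.99, SE 0.17, adjusted p = 5.08e-12).

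Opposite calls were rare. Of the genes called under both conditions 45 changed side, 20 of them higher in shoots under +N and 25 higher in roots under +N. An aluminium-activated malate transporter gene, *Solyc05g009580.3*, had 0.938, 0.542 and 0.802 CPM in shoots, against 19.3, 19.2 and 21.7 CPM in roots under +N, and means of 1.5 ± 0.565 CPM in shoots and 0.0159 ± 0.0276 CPM in roots under −N (SD, n = 3 each). A glyoxal oxidase gene, *Solyc04g081130.1*, had 2.59, 2.96 and 3.38 CPM in shoots, against 0.249, 0.157 and 0.11 CPM in roots under +N, and means of 0.16 ± 0.0248 CPM in shoots and 2.69 ± 0.612 CPM in roots under −N (SD, n = 3 each). Both are genes of low level, and the first had almost no counts in −N roots. The fitted interactions of such genes depend on the prior count (−10.72, SE 0.59, adjusted p = 3.22e-12 for *Solyc05g009580.3* and 8.04, SE 0.55, adjusted p = 1.00e-10 for *Solyc04g081130.1*).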

How the data were processed

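mRNA of shoots and roots was sequenced 6 h after the treatments, with 3 pools of 4 plants per group. The deposited values are raw counts of reads on genes. The authors used Cutadapt for trimming, TopHat2 for mapping (tomato genome, build 4.0) and htseq-count for counting. Their versions, the strand setting and the handling of multi-mapped reads were not stated in the sources used here. The table held 34075 genes and 12 libraries, and the other libraries of the study (84 samples in all) were not analysed here. Depth ran from 17472760 to 21228781 counts in the 6 +N libraries. The supplementary tables of the study gave descriptions for 5122 genes, and of the gene identifiers 0 matched the reference gene table, so no sequence or coordinate is given.

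The 6 +N libraries were filtered with filterByExpr (minimum count 10, minimum total 15), scaled by TMM (factors 0.954 to 0.959 in shoots and 1.04 to 1.05 in roots) and tested with edgeR 4.0.16 in R 4.3.3 (glmQLFit, glmQLFTest, Benjamini-Hochberg over all genes tested). A call needed an adjusted p under 0.015 and more than 2-fold, the thresholds of the study. The −N libraries were scaled and tested in the same way, and the interaction was fitted over all 12 libraries. CPM were scaled within the libraries of one N condition. They are not per length, so the ranking by CPM that chose some of the genes named also depends on transcript length. A gene with no count in an organ was bounded by 3 counts over its 3 libraries, and with 1 to 3 counts the ratio has an exact binomial 95% interval. Bounds and intervals cover counting error only. Each SE is the absolute log2 fold change divided by the square root of the quasi-likelihood F. It is derived from the test, and for genes with few counts in a group it can understate the counting error. On simulated counts with 200 genes changed, the +N test over 21663 genes recovered 95 of 100 at 3-fold and 98 of 100 at 8-fold. It made 2 false calls. The interaction over 22483 genes recovered 84 of 100 and 97 of 100, with 1 false call. In the data, 45% of genes were called under +N and 14.2% for the interaction. Recovery with that many genes changed was not tested, and neither was the number of false calls.

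The genes named were the 12 described genes of largest fold in each direction (10 CPM or more, groups apart), the 8 described genes of highest CPM in each direction, up to 4 members of highest CPM per list, chosen N genes, genes of opposite calls or largest interaction, and 2 undescribed genes per direction. Not all of them are named in the text, and the enolase gene *Solyc10g085550.3* was added after its values were seen. The lists and the genes were chosen with earlier results of these data known, and the run of glutaredoxins was picked after its values were seen. Alternatives were DESeq2 1.42.0, other scalings, filters and thresholds, thinning to the smallest library, and leaving out each replicate.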

Additional observations from a re-analysis of the deposited data

Results flagged for a closer look

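Of the genes named in the report, 35 had an organ difference under +N that differed from that under −N by the edgeR interaction test (adjusted p under 0.015 and more than 2-fold). All values are interactions on the log2 scale, shoot over root under +N minus shoot over root under −N, and no explanation of them was tested.

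Among photosynthesis genes the interaction was positive for Rubisco activase (*Solyc10g086580.2*, 1.79), transketolase (*Solyc10g018300.3*, 1.43), aldolase (*Solyc01g110360.3*, 1.95), the chlorophyll a-b binding protein gene *Solyc02g070980.1* (2.94) and *PsbS* (*Solyc06g060340.3*, 5.16, fitted with no count in +N roots and therefore dependent on the prior count). It was negative for glycolate oxidase (*Solyc07g056540.3*, −1.03) and for *CONSTANS-LIKE 4* (*Solyc12g096500.2*, −1.63). The germin-like gene *Solyc07g041720.1* had −3.82, with 6 counts in +N roots and a mean of 0 CPM in −N roots. The wax genes had 1.14 (*Solyc07g006300.4*), 1.94 (*Solyc11g072990.1*) and 2.53 (*Solyc06g074390.3*).

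Among N genes the interaction was −1.82 and −2.95 for the *NIR* genes *Solyc01g108630.3* and *Solyc10g050890.2*, −1.81 for *GS* (*Solyc04g014510.3*), 1.86 for asparagine synthetase (*Solyc04g055200.3*), −1.05 for the siroheme gene *Solyc01g086650.3*, −1.45 for *NRT3* (*Solyc03g112100.3*) and −3.48 for *NIT2* (*Solyc08g007430.2*). The regulators had −3.58 (LBD37 homolog, *Solyc01g107190.3*), 5.87 (NLP gene *Solyc01g112190.3*) and 2.11 (LBD41 homolog, *Solyc02g085910.4*).

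The carbon genes had −1.46 and −2.99 (sucrose synthases *Solyc07g042550.3* and *Solyc12g009300.3*) and −1.83 and −1.30 (pyruvate decarboxylases *Solyc10g076510.2* and *Solyc02g077240.4*), and the enolase gene *Solyc10g085550.3*, called higher in shoots under +N and higher in roots under −N, had 2.35. The channels and transporters had −1.29 (*Solyc01g010080.3*, AKT1), −3.46 (*SKOR*, *Solyc11g011500.2*), 1.58 (*TIP1.1*, *Solyc06g074820.3*), 1.41 (*TIP4.1*, *Solyc08g066840.3*) and −10.72 (the malate transporter gene *Solyc05g009580.3*). The remaining genes had 1.29 (*RPL9*, *Solyc06g073310.3*), 1.88 (*HDT1*, *Solyc11g066840.3*), −3.98 (miraculin-like, *Solyc06g072220.1*) and 8.04 (glyoxal oxidase, *Solyc04g081130.1*).

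Of the 35 calls, 6 were lost under at least one alternative. The germin-like gene lost its call with DESeq2 (adjusted p = 0.0333), with most single libraries left out, with size factors or with no filter. Aldolase fell short without −N root replicate 1 (0.95), as did *PsbS* (4.53, adjusted p = 0.0269) and the ECERIFERUM 3 homolog *Solyc07g006300.4* (0.59), which also lost it without +N root replicate 3 (0.93) and with DESeq2. The siroheme gene and glycolate oxidase, both near 2-fold, slipped under it with DESeq2 (−0.97 and −0.95), with size factors, and without +N root replicate 3 (−0.96 and −0.99), among others.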

How the results depend on the processing

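The direction and the side of the threshold of the genes named in the report were largely independent of the processing under +N: over the alternatives listed under processing, 1425 values of 76 genes kept both, 11 passed the threshold only there and 7 fell short of it, and no called gene changed sign. With an adjusted p under 0.05 and no fold threshold 9007 genes were higher in shoots and 9016 in roots, and with a threshold of 4-fold 2836 and 2780, since both change what is counted. DESeq2 gave 4829 and 4861, glmTreat 4101 and 3976, and leaving out single replicates 4974 to 5052 and 4809 to 4875. Total-count scaling, without the TMM factors, shifted the median log2 fold change of all genes to −0.13, against 0.0038, and gave 4528 genes higher in shoots and 5307 in roots (46.0% in shoots, against 50.9%). That scaling moved the counts of some lists by 1 or 2 genes, to 12 NPF, 11 CONSTANS-like, 5 homeobox and 11 mineral transporter genes higher in shoots and 12 laccase and lignin genes higher in roots. For the interaction, DESeq2 gave 1964 positive and 1330 negative calls. The shares of counts of the lists kept their sign, except for the terpene synthases, whose difference of shoots minus roots ran from −6.37e-06 to 0.000161 percentage points with single libraries left out and was negative without shoot+N replicate 3, root+N replicate 2 or root+N replicate 3. Whether shoots and roots of one replicate number came from the same plants is not stated in the sources used here. Deviations from the group means correlated at −0.0023 to 0.0041 between shoot and root libraries of the same number, which cannot settle it. With the replicate block 4954 genes were higher in shoots and 4771 in roots, and the interaction had 1587 positive and 1541 negative calls. Limits: with 3 pools per organ the p-values measure the spread between pools, organ and dissection cannot be told apart, the methods give a lower minimum RNA integrity for shoots than for roots and its part was not tested, and levels of similar gene copies are uncertain.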
